A study of Rattus norvegicus with 16 samples.

Results

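The genes described are 10 genes used to recognise fibroblasts and pericytes in cultured rat hippocampal neurons: the fibrillar collagen genes Col1a1, Col1a2 and Col3a1, the matrix glycoprotein gene Fn1, the small proteoglycan genes Dcn and Lum, the pericyte and smooth muscle genes Pdgfrb, Rgs5 and Acta2, and the growth factor gene Igf2. They were chosen by name, and every array probe whose accession belongs to them was taken, which gave 12 probes of 10 genes among 15715 named genes on the array. Of these probes, 10 probes of 9 genes were well above background in every sample of at least 1 group and were tested, and 8 of the 10 genes were above background on every array. Between samples the collagen genes differed by as much as 9.52-fold, and the samples sharing a replicate number lay together at most times. No hydroxyurea comparison called any of the 9 tested genes, where the main fits called 0% of all 20278 probes.

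Fibroblasts of the meninges and of vessel walls make fibrillar collagen as procollagen chains, which are trimmed outside the cell and assembled into fibres; type I collagen joins the products of Col1a1 and Col1a2, and type III collagen is made of the Col3a1 product. Decorin and lumican coat these fibres, and fibronectin links them to integrins on cells. Pericytes wrap capillaries and carry the PDGF receptor beta, while smooth muscle cells of larger vessels carry alpha actin. Such cells are a minor part of hippocampal tissue, and cultures prepared from it can contain them beside neurons and glia.

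Total RNA came from primary hippocampal neuron cultures of embryonic day 18 Sprague-Dawley rats, although the extraction notes name hippocampal tissue. Cultures were left untreated or received 5 µM hydroxyurea, a ribonucleotide reductase inhibitor that limits DNA synthesis, for 2, 6, 12 or 24 h, in medium with B27 lacking antioxidants. The study asked whether the drug protects such neurons from stress. Each of the 5 groups had 3 samples numbered 1 to 3, and the 15 samples took 16 one-colour arrays; untreated replicate 1 had an array on each of the slides, whose mean was used. Nothing says that replicates were separate cultures or what a number stands for, so p-values measure only how much these samples differ, possibly for technical reasons. How long untreated cultures spent in the new medium is not stated either. All 14 neuron markers tested, of 15 listed, were above background on every array, as were all 9 astrocyte and all 8 tested oligodendrocyte lineage markers. So were 6 of 7 microglial markers tested, of 11 listed, and 18151 of all 20278 probes tested. The cultures thus held RNA of glial markers too. A level below is log2 of the processed spot signal minus the 75th percentile of the array, so that 0 is that percentile. Levels of different probes cannot be set against each other.

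The numbers of 2 samples conflict between the deposited files. For 24 h, the score column named replicate 1 followed the scanner file of replicate 3, and that named replicate 3 the file of replicate 1 (Pearson r = 0.999996 across spots, against 0.991 with the file of the same name). The other columns followed the file of their own sample. Scanner files are used here as labelled, and results on replicate numbers are given also with these 2 samples exchanged and without the 24 h samples. In comparisons of treatments the exchange changes nothing without a term for the number, because both samples stay in the 24 h group. The slides were not balanced over the numbers. Slide 1 held the number 1 samples of 2, 6 and 12 h, the number 2 samples of untreated, 2 and 6 h, and 24 h replicate 3, and slide 2 held the number 3 samples of untreated, 2, 6 and 12 h, the number 2 samples of 12 and 24 h, and 24 h replicate 1. Between 64.6% and 70.4% of probes were above background on an array, no spot was saturated. Repeated spots of a probe had a median CV from 3.08% to 7.86%, apart from 12 h replicate 3 at 17.1%.

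Col1a1, which encodes the more abundant chain of type I collagen, was read by 2 probes (RefSeq NM_053304). At probe A_64_P040278 the number 3 samples had levels of -0.38 untreated, -0.14 at 2 h, -0.27 at 6 h, -0.63 at 12 h and -1.75 at 24 h. The number 2 samples had levels of -2.48, -2.66, -2.81, -2.85 and -2.77 at the same times. The number 1 samples had levels of -1.23, -1.40, -1.51, -1.62 and -0.41. From untreated to 12 h number 3 was the highest, number 1 in the middle and number 2 the lowest, and at 24 h numbers 1 and 3 stood in the opposite order. Number 3 exceeded number 2 by 4.27-fold in untreated cultures, 5.75-fold at 2 h, 5.80-fold at 6 h and 4.66-fold at 12 h, and by 2.03-fold at 24 h as labelled. Over the 5 times number 3 lay 2.08 log2 units above number 2 (SE 0.30, limma adjusted p = 0.00654), or 4.23-fold (95% interval 2.69 to 6.64). With the 24 h samples exchanged the difference was 2.35 (SE 0.09, adjusted p = 8.45e-08), 5.09-fold (95% interval 4.44 to 5.82), and without the 24 h samples it was 2.34 (SE 0.10, adjusted p = 1.30e-05). As labelled, the call held on leaving out any of the 15 samples (adjusted p up to 0.0361).

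The other Col1a1 probe, A_44_P350521, gave the same order of numbers over a narrower range. Its levels were -1.76, -1.72, -2.01, -2.04 and -2.32 in number 3 from untreated to 24 h. They were -2.60, -2.61, -2.78, -2.61 and -2.49 in number 2. They were -2.30, -2.24, -2.42, -2.11 and -1.99 in number 1. Number 3 exceeded number 2 at each time, by 0.65 over all of them (SE 0.12, limma adjusted p = 0.0304), which is 1.57-fold against 4.23-fold at the other probe. The probes thus disagreed on the size, not on the direction, of the difference, and the call at A_44_P350521 was lost on leaving out any of 10 samples (adjusted p up to 0.125), namely 2 h replicate 1 or any number 2 or number 3 sample except 24 h replicate 3. It was also lost in the fit that added a slide term (adjusted p = 0.0584) and without a filter on dim probes (adjusted p = 0.0796).

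Col1a2, the gene of the other type I chain (probe A_43_P12783, NM_053356), followed the same order. Levels were -0.080, 0.19, 0.0021, -0.21 and -1.27 in number 3. They were -1.80, -1.98, -1.91, -1.96 and -1.96 in number 2. They were -0.96, -0.95, -1.23, -1.08 and -0.034 in number 1. The number 2 samples stayed between -1.98 and -1.80 over all 5 times, and no number 2 sample reached the lowest sample of number 1 or 3. Number 3 lay 1.65 above number 2 (SE 0.28, limma adjusted p = 0.0169), 3.13-fold (95% interval 2.05 to 4.79). The difference was 1.89 with the 24 h samples exchanged (adjusted p = 4.03e-07) and 1.89 without the 24 h samples (adjusted p = 4.12e-05). As labelled, the call was lost on leaving out any of 9 samples, each number 2 or number 3 sample except 24 h replicate 3 (adjusted p 0.0527 to 0.0803).

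The region before Col1a2 is shown because it was the only collagen gene here with an entry in the RefSeq promoter table, and the region before Acta2, the smooth muscle actin gene whose level was not called between the numbers, is shown beside it. Of the 10 genes 5 had an entry. Both regions run from 250 bases before to 50 bases after the start that RefSeq lists on build GRCr8, 5′ to 3′ on the strand of the gene. Capitals mark matches, on either strand, to the CCAAT box, to the TATA box (TATAAA), to the GC box (GGGCGG) or to the CArG box of muscle genes.
Col1a2, chr4:33518307-33518606, plus strand: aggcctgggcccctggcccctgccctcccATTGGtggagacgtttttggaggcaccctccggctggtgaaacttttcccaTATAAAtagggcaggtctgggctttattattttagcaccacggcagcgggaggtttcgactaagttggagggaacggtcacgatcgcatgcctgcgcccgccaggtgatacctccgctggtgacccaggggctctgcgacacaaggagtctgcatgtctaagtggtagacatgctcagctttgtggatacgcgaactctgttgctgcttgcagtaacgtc
Acta2, chr1:241172454-241172753, minus strand: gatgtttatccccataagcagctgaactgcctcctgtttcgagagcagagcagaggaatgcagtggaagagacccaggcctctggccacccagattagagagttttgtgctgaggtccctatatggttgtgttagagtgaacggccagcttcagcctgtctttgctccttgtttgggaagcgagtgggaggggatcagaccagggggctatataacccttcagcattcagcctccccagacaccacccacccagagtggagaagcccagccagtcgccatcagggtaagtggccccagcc
The Col1a2 region held a match to the CCAAT box on the reverse strand, beginning 221 bases upstream of the listed start. It also held a match to the TATA box on the forward strand, beginning 170 bases upstream. Whether either match serves the listed start was not tested. Among 33469 rat promoters of the same length, 37.49% held the first and 14.22% the other on either strand. The Acta2 region held no exact match to the 4 motifs; the CArG box was searched in its strict form only, and elements of this kind with a mismatch were not searched. Exact matches were found in 33.06% of promoters for the GC box and 1.637% for the CArG box.

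Col3a1, the gene of type III collagen (probe A_44_P146518, NM_032085), covered the widest range of the tested probes, 3.25 log2 units. Levels were -1.95, -1.46, -1.80, -2.85 and -3.45 in number 3. They were -4.20, -4.71, -4.44, -4.65 and -4.37 in number 2. They were -2.76, -2.93, -3.26, -3.10 and -1.91 in number 1. At 12 h number 3 stood closer to number 1 than at earlier times, and 24 h again reversed these numbers. Number 3 lay 2.17 above number 2 (SE 0.35, limma adjusted p = 0.012), 4.51-fold (95% interval 2.66 to 7.65). The difference was 2.48 with the 24 h samples exchanged (adjusted p = 2.78e-05) and 2.48 without the 24 h samples (adjusted p = 0.00065). As labelled, the call was lost without 2 h replicate 2 (adjusted p = 0.0518) or 6 h replicate 3 (adjusted p = 0.0578).

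**Figure D1:**
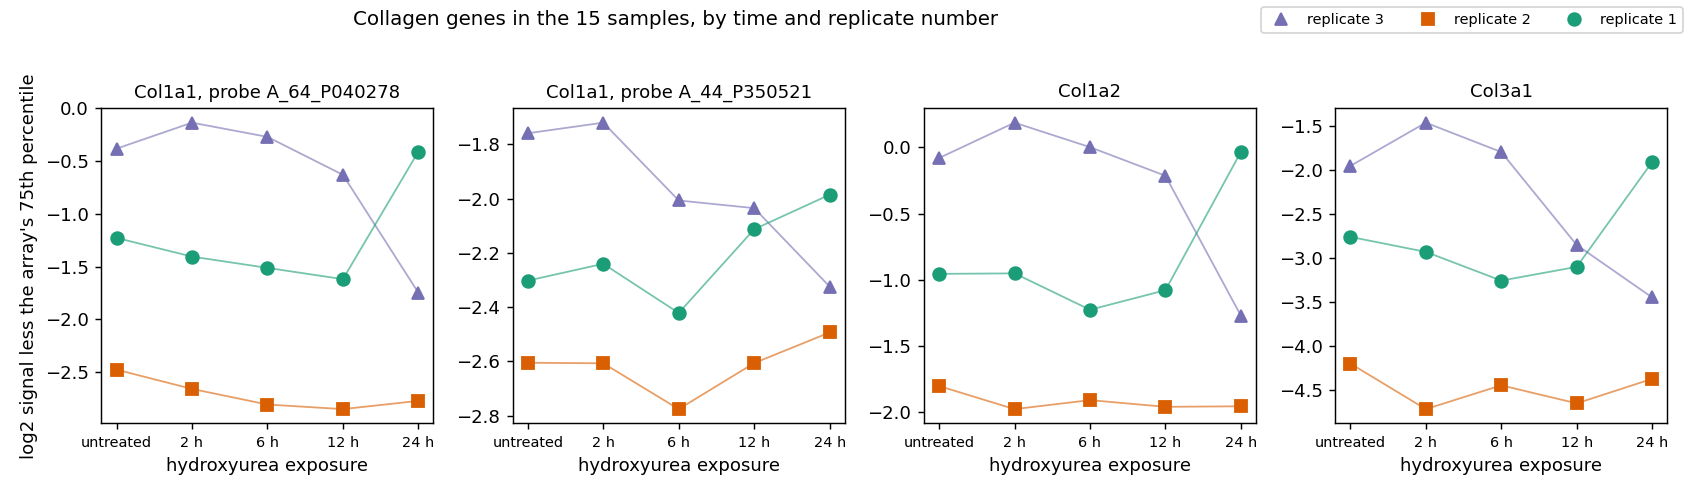
Levels of the collagen probes (log2 signal less the 75th percentile of the array, each panel on its own axis) in untreated cultures and after 2, 6, 12 and 24 h of hydroxyurea; points are samples, and lines join samples with the same replicate number. Number 2 is the lowest at every time in all 4 panels, and numbers 1 and 3 change places at 24 h as labelled.

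The 4 collagen probes were the only ones of the 10 tested that were called between numbers 3 and 2, all higher in number 3, where 1.03% of all 20278 probes were called, 0.197% as higher and 0.833% as lower. The same 3 collagen genes were higher in number 3 with the exchange, where 3.09% of probes were called (0.986% as higher), and without the 24 h samples, where 1.9% were called. Between numbers 2 and 1, where 0.602% of probes were called, the collagen probes lay lower in number 2 at each of the 5 times, as did 4.79% of all probes, but were not called as labelled: Col1a1 was lower by 2.79-fold at A_64_P040278 (adjusted p = 0.0559), Col3a1 by 3.21-fold (adjusted p = 0.0635) and Col1a2 by 2.10-fold (adjusted p = 0.182). With the 24 h samples exchanged these 3 probes were called, as were 1.13% of all probes, and Col1a1 was then 2.31-fold lower (adjusted p = 3.23e-05). Number 3 against number 1 called no probe as labelled (0% of all, 1286 at unadjusted p under 0.05), with Col1a1 1.52-fold higher in number 3 (95% interval 0.966 to 2.38). With the exchange it called 1.27% of probes, among them Col1a1 at 2.20-fold higher (adjusted p = 1.42e-04), Col1a2 at 2.10-fold (adjusted p = 1.49e-04) and Col3a1 at 2.15-fold (adjusted p = 0.0168). Without the 24 h samples, where 0.573% were called, Col1a1 (adjusted p = 0.00339) and Col1a2 (adjusted p = 0.00417) were called and Col3a1 was not (adjusted p = 0.0919). In the F test over the 3 numbers, which called 0.784% of probes, Col1a1 ranked 69 of 20278 (adjusted p = 0.0158), Col3a1 105 (adjusted p = 0.0251) and Col1a2 143 (adjusted p = 0.0413). With the exchange their ranks were 3, 34 and 6, where 3.23% were called. As labelled, the F test call of Col1a1 was lost on leaving out any of 7 of the 15 samples (adjusted p up to 0.0772). That of Col3a1 was lost for 8 samples (adjusted p up to 0.124) and that of Col1a2 for 13 (adjusted p up to 0.173).

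Slide moved with these comparisons, most of all with number 3 against number 1. With the slide as a further term and the 24 h samples exchanged, number 3 stayed above number 2 by 2.26 for Col1a1 (adjusted p = 1.19e-05), 1.84 for Col1a2 (adjusted p = 6.65e-05) and 2.26 for Col3a1 (adjusted p = 0.00169), where 1.32% of probes were called. Number 3 against number 1, with 0.0296% called, was then not called for Col1a1 (1.01, SE 0.15, adjusted p = 0.0668), Col1a2 (0.98, SE 0.15, adjusted p = 0.0668) or Col3a1 (0.78, adjusted p = 0.522). The arrays of untreated replicate 1, 1 on each slide, gave -1.29 on slide 1 and -1.16 on slide 2 at A_64_P040278, -0.92 and -0.99 for Col1a2, and -2.73 and -2.79 for Col3a1. The number 2 samples hybridised on slide 2 (12 and 24 h) were as low as those on slide 1. At 12 h, where numbers 3 and 2 both lay on slide 2, number 3 had 4.66-fold more Col1a1 signal at A_64_P040278, 3.36-fold more Col1a2 and 3.48-fold more Col3a1. These folds rest on 1 sample of each number, and repeated spots of 12 h replicate 3 had a median CV of 17.1%.

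The replicate number accounted for 80.9% of the variance of Col1a1 over the 15 samples, 75.8% for Col1a2 and 76.6% for Col3a1, and for 97.3%, 97.9% and 91.0% with the exchange. The number also accounted for 69.2% of the variance of Fn1, 55.0% for Dcn and 41.4% for Igf2 as labelled, over much smaller SDs, and for 22.4% for Pdgfrb, 21.6% for Lum and 0.284% for Acta2. With the exchange these shares were 69.7% for Fn1, 56.6% for Dcn and 47.9% for Igf2. They were then 44.9% for Pdgfrb, 45.6% for Lum and 21.8% for Acta2. The group of untreated or treated time accounted for 1.84% for Col1a1, 0.843% for Col1a2 and 3.42% for Col3a1. For comparison, the median over all tested probes was 16.3% for the number as labelled, 19.7% with the exchange and 19.3% for the group. There are more groups than numbers, so chance alone gives the group a larger share, and the shares of group and number are not directly comparable. In such bulk RNA, fewer collagen-making cells and less collagen RNA per cell cannot be told apart.

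Fn1, which encodes fibronectin, had a single tested probe (A_44_P681660, NM_019143). Its levels ran the other way from the collagens: -1.35, -1.28, -1.27, -1.38 and -1.18 in number 3. They were -0.97, -0.94, -0.72, -0.98 and -1.04 in number 2. They were -1.002, -1.10, -1.35, -1.13 and -1.19 in number 1. Number 3 was below number 2 at each time, by 1.28-fold over all of them, without passing the test (-0.36, SE 0.09, adjusted p = 0.118, and 0.0615 with the exchange). Another Fn1 probe, A_64_P077570, was above background in 3 of the 15 samples and was not tested.

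Dcn, the gene of the proteoglycan decorin (NM_024129), varied little, with an SD of 0.12 over all 15 samples and a range of -1.34 to -0.95. It lay lower in number 3 than in number 2 at each time, by 0.18 on average (adjusted p = 0.434), which is a change of 1.13-fold. Lum, the gene of lumican (NM_031050), was near the background limit, above it in 8 of the 15 samples: 3 untreated, 1 at 2 h, none at 6 h, 2 at 12 h and 2 at 24 h. Its 3 samples at 2 h, at -6.85, -6.44 and -6.73 for numbers 3, 2 and 1, all lay below the untreated ones at -5.82, -6.03 and -6.39, and 6.27% of all probes separated in this way, in either direction, at 2 h. Lum passed the filter only through the untreated group, which favours lower values elsewhere, so this order is a description and supports nothing; the fit did not call it. At 6, 12 and 24 h none of the 10 tested probes separated from untreated in this way, where 3.89%, 5.16% and 3.03% of all probes did.

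Among the genes of mural cells, Pdgfrb, the receptor that pericytes need for recruitment to vessels (NM_031525), had an SD of 0.21 and a range of -1.78 to -0.999. Its extremes were untreated replicates 3 and 1, and the arrays of untreated replicate 1 read -0.54 on slide 1 and -1.46 on slide 2. Number 3 lay below number 2 at each time (-0.23, adjusted p = 0.566). Acta2, the smooth muscle actin gene (NM_031004), ranged from -3.90 to -3.24, both extremes in number 1, at 24 h and 12 h. Its number 3 and number 2 samples differed by -0.00480 on average (SE 0.13). Rgs5, a regulator of G protein signalling that marks brain pericytes, was not well above background in any of the 15 samples and was not tested. Igf2, an imprinted growth factor gene expressed by meninges and choroid plexus, ranged from -3.81 to -3.34 (SD 0.15) and was not called between numbers (number 3 against number 2: -0.11, adjusted p = 0.690).

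**Figure D2:**
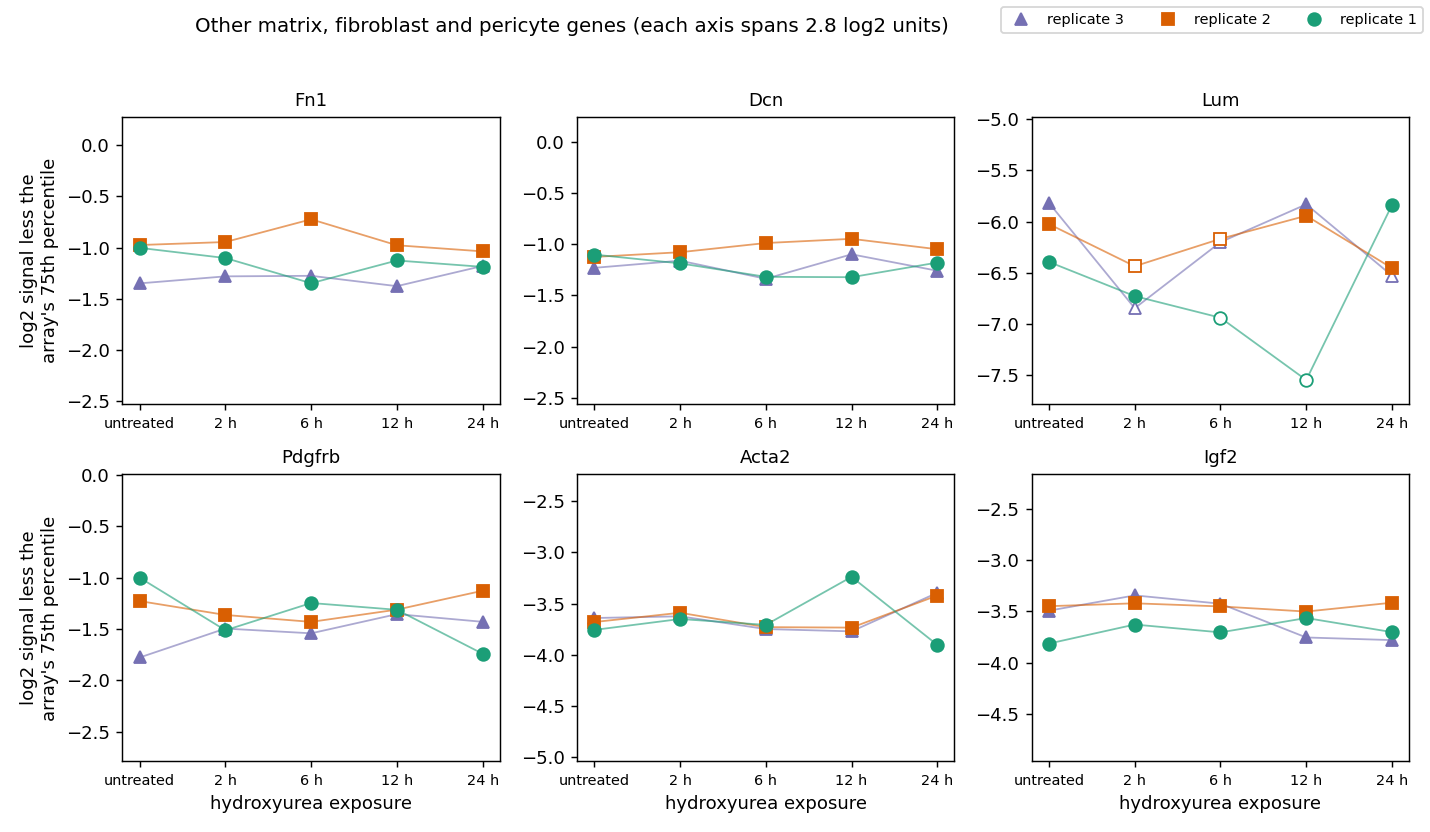
Levels of the tested probes of Fn1, Dcn, Lum, Pdgfrb, Acta2 and Igf2 (log2 signal less the 75th percentile of the array, each axis 2.8 units tall) by time and replicate number; open symbols are samples not well above background. Fn1, Dcn, Pdgfrb, Acta2 and Igf2 span less than 1 unit over the 15 samples, and Lum is lowest in number 1 at 12 h, at -7.55.

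**Figure D3:**
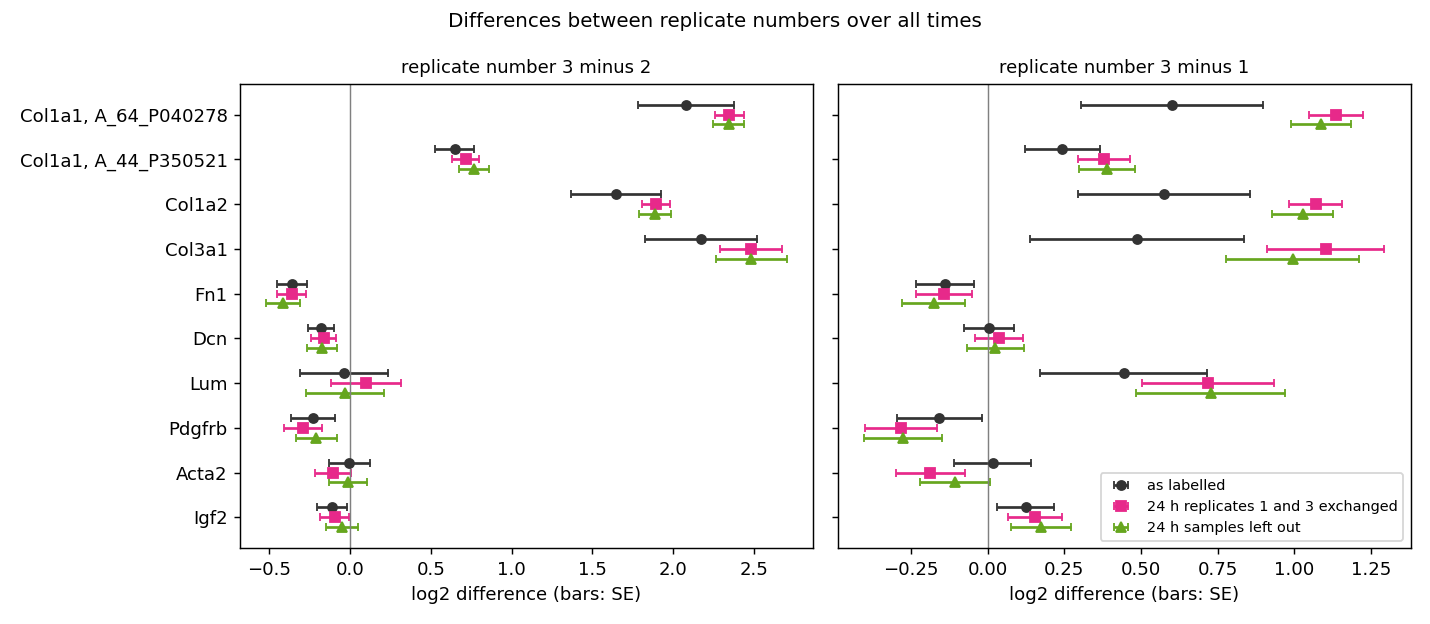
Log2 differences of number 3 minus number 2 (left) and number 3 minus number 1 (right) for the 10 tested probes, with bars of 1 SE, as labelled, with the 24 h samples exchanged and without the 24 h samples. The collagen probes lie right of 0 in both panels, from 0.65 to 2.48 on the left, and the other probes lie between -0.41 and 0.10 on the left.

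Counted over all 5 times as labelled, the 4 collagen probes were higher in number 3 than in number 2 each time, as were 5.69% of all probes, and the probes of Dcn, Fn1 and Pdgfrb were lower each time, as were 6.28%. The collagen probes and these 3 thus ran in opposite directions between the same samples.

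Hydroxyurea left each of the 10 tested probes uncalled at 2, 6, 12 and 24 h, over the mean of the 4 times and between 24 h and 2 h. The limma fits called 0 of 20278 probes (0%) in each of these comparisons and in the F test among the 5 groups, with 156 to 485 probes at an unadjusted p under 0.05. Chance alone would put a share of about 0.05 of all probes there, more than any of these counts. These fits had no term for the replicate number, and 0 calls do not show that levels stayed unchanged. Col1a1 at A_64_P040278 averaged -1.36 ± 1.05 in untreated cultures, -1.40 ± 1.26 at 2 h, -1.53 ± 1.27 at 6 h, -1.70 ± 1.11 at 12 h and -1.64 ± 1.18 at 24 h (SD, n = 3 each). Its mean over the treated times differed from untreated by -0.21, with a 95% interval of -1.62 to 1.20. This fit had no term for the number, and a change of either sign well beyond 1 log2 unit lay within its error. For Col3a1 the difference was -0.27 (interval -1.80 to 1.26), and for Col1a2 it was -0.086 (interval -1.23 to 1.06). For the genes with a narrower range between samples the error was smaller: Dcn differed by -0.0084 (SE 0.098), Fn1 by -0.021 (SE 0.14), Igf2 by 0.028 (SE 0.11), Acta2 by 0.066 (SE 0.12), Pdgfrb by -0.071 (SE 0.15) and Lum by -0.38 (SE 0.30).

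With the number as a term in the fit and the 24 h samples exchanged, the SE of the mean of the 4 times against untreated was 0.091 for Col1a1, 0.090 for Col1a2 and 0.20 for Col3a1. In that mean 0.00493% of probes were called, none of them among the 10, and in the other treatment comparisons 0%. At 12 h Col1a1 then differed from untreated by -0.34 (95% interval -0.59 to -0.086) and Col3a1 by -0.56 (interval -1.10 to -0.02), and at 24 h Col1a1 differed by -0.28 (interval -0.53 to -0.03). None of these passed the test over all probes (adjusted p = 0.895 at 12 h and 1.00 at 24 h). This fit was chosen after the values had been seen.

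**Figure D4:**
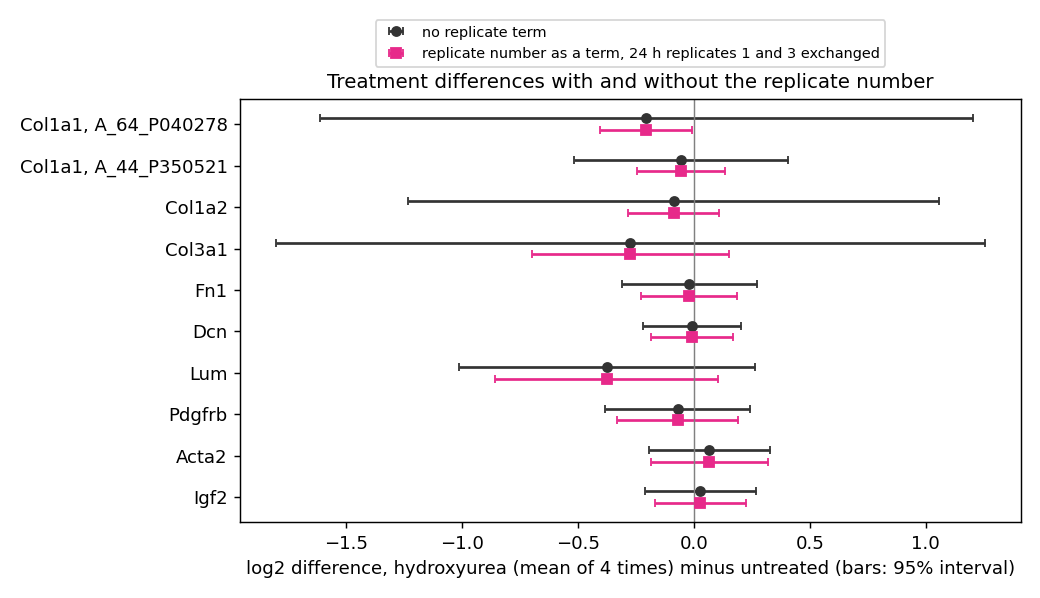
Log2 difference of the mean of the 4 hydroxyurea times minus untreated for the 10 tested probes, with 95% intervals, without a term for the replicate number and with it after the exchange of the 24 h samples. The intervals of the collagen probes are the ones that shrink most, from -1.62 to 1.20 without the term to -0.40 to -0.0071 with it for Col1a1.

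Other genes of collagen, its processing and the cells that make it were taken from lists, in which most genes were not called between numbers. Of 12 other collagen genes tested, 1 was called between numbers as labelled, where the F test called 0.784% of all probes, and 6 with the exchange, where it called 3.23%. Their summed linear level, in multiples of the 75th percentile, was 4.78 to 5.13 in number 3 and 5.58 to 6.24 in number 2. It was 4.96 to 5.89 in number 1. Such a sum, here and below, weighs the brightest probes most and does not describe each gene of a list. The median difference of number 3 against 2 was -0.09 in this list, against 0.01 over all probes. The called gene, Col8a1, a short-chain collagen of vessel walls, was lower in number 3 than in number 2 by 0.79 (F adjusted p = 0.0308). Col18a1, a basement membrane collagen, had a difference of 1.50 between numbers 3 and 2 as labelled (adjusted p = 0.0929) and was higher in number 3 by 1.85 with the exchange, where it was called (adjusted p = 1.31e-05). Of 18 processing genes none was called by the F test as labelled and 3 with the exchange. Mmp2, a gelatin-cleaving protease, had a difference of 0.74 between numbers 3 and 2 (adjusted p = 0.129). Loxl1, a lysyl oxidase that crosslinks elastin fibres, was lower in number 3 by 0.80 in the pairwise comparison (adjusted p = 0.0325).

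Of 15 proteoglycan and matricellular genes 1 was called as labelled (0.784% of all probes) and 5 with the exchange (3.23% of all probes), and the median difference of number 3 against 2 was -0.19. Ccn2, a growth factor responsive matricellular gene, was lower in number 3 than in number 2 by 0.68 (F adjusted p = 0.0452), and the differences of Tnc (-0.88, adjusted p = 0.0669) and Bgn (-0.61, adjusted p = 0.0785) were not called as labelled. Of 10 pericyte and smooth muscle genes tested, 2 were called as labelled and 3 with the exchange. Tagln, a smooth muscle actin-binding protein, was lower in number 3 by 0.94 (F adjusted p = 0.0393), and Foxc1, a transcription factor of meningeal and vessel wall cells, was higher by 0.84 (F adjusted p = 0.0436). Of 13 meningeal fibroblast genes 1 was called as labelled and 6 with the exchange, where 2 were called higher and 4 lower in number 3 than in number 2. The gene called as labelled, Vim, the intermediate filament gene vimentin, was lower in number 3 by 0.58 (F adjusted p = 0.0153). None of 10 TGF-beta pathway genes and none of 11 genes of the insulin-like growth factor axis was called between numbers, as labelled or with the exchange, and of 8 genes of PDGF ligands and fibronectin receptors none was called as labelled and 1 with the exchange. In the mean of the 4 times against untreated, none of the genes in these lists was called. Notch3, a receptor of mural cells, had the smallest p of its list there (0.61, SE 0.24, unadjusted p = 0.0254).

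Markers of choroid plexus and ependyma moved with the numbers too. Of 6 such genes 4 were tested, all above background on every array, and 2 were called by the F test as labelled (0.784% of all probes) and 3 with the exchange (3.23%). Ttr, the choroid plexus gene of transthyretin, lay 1.46 lower in number 3 than in number 2 (F adjusted p = 1.82e-04), and Foxj1, a transcription factor of ciliated cells, lay 0.44 lower (F adjusted p = 0.0287). The summed linear level of the 4 genes, in multiples of the 75th percentile of the array, was 4.07 to 5.48 in number 3, 9.89 to 17.3 in number 2 and 3.69 to 4.36 in number 1. The number 2 samples, lowest in Col1a1, Col1a2 and Col3a1, were thus highest in this sum, while the ranges of numbers 3 and 1 overlapped. The part of this difference in the result on these 3 collagen genes was not tested. Summed neuron markers were 113 to 147 in number 3, 107 to 122 in number 2 and 104 to 118 in number 1, with none of 14 called as labelled and 2 with the exchange. Endothelial markers were 0.418 to 0.529, 0.441 to 0.578 and 0.379 to 0.492 in numbers 3, 2 and 1, over 4 tested of 11 listed, none called as labelled and 1 with the exchange. Of 9 astrocyte, 7 microglial and 8 oligodendrocyte lineage genes tested, none was called as labelled, and 1, 1 and 2 were called with the exchange.

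Likeness was measured by Pearson correlation with a profile over the 15 samples, among 10081 named genes above background on every array, as a description only, since same-numbered samples lie together. The genes most like the mean profile of the 8 genes above background throughout were Pak2 (r = 0.738), Rps26 (0.735), Impa2 (0.714), Tacr1 (0.712), Map2k7 (0.701) and Mcrip1 (0.700), and the least like were Macir (-0.841), Golga4 (-0.723) and Fundc1 (-0.707). That mean joins members that ran in opposite directions, such as Col1a1 and Fn1 (r = -0.80), so it does not describe each of them. A profile of the 3 collagens alone, chosen after their values were seen, was matched more closely, by Tex10 (r = 0.972), Gjb2 (0.951), Myadm (0.949), Hlx (0.938), Atf5 (0.936) and Foxc1 (0.935), and was opposed by Acot1 (-0.976), Ctsc (-0.975) and Castor1 (-0.974). Tex10 lay 2.32 higher in number 3 than in number 2, and Acot1 lay 1.57 lower.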

How the data were processed

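Arrays were scanned and read with Agilent Feature Extraction 11.5.1.1, per the file headers, which name rat build rn4. The authors deposited spot intensity values, background-subtracted and not scaled between arrays, per the file headers, and a score per array, used as an alternative. How that score was made was not stated.

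Control and outlier spots were left out (75 probes without a usable spot on an array were dropped), spots of a probe averaged, and the 75th percentile subtracted from the log2 values. Probes were kept where all arrays of 1 or more groups were well above background, 20278 in all. The moderated tests of limma 3.58.1 (R 4.3.3) were two-sided, with Benjamini-Hochberg adjustment over all probes and a threshold of 0.05, treatments in 1 fit of the 15 samples and numbers with group as a further term. Data were read with the R package data.table, version 1.17.8, and the fits were tested on simulated data. Accessions were named through RefSeq for 18758 of 30367 probes. Background correction by normexp (offset 50) used the median spot signal, since the files have no mean signal. The slide of untreated replicate 1, averaged over both slides, was entered midway.

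The members and gene lists were chosen with earlier results of these data known. The genes named from lists have the smallest unadjusted p in the mean of the 4 times or in the F test among numbers, at most 4 a list. Same-numbered samples were not taken as pairs in the main treatment fit. Of 30 such pairs, 19 had deviations correlated above 0.1 as labelled, and 24 with the 24 h samples exchanged. The lowest of these correlations was -0.42 as labelled and -0.0021 with the exchange. The 60 pairs with different numbers ran from -0.34 to 0.41 as labelled and from -0.42 to 0.28 with the exchange. As labelled 7 of 15 samples matched their own number best, and with the exchange 13 did. The number of arrays limits the precision.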

Additional observations from a re-analysis of the deposited data

Results flagged for a closer look

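Among the 5 samples of each replicate number, 2 values of Col1a2 lay far from the other 4. The 24 h sample of number 3 was at -1.27, where the others of that number lay between -0.21 and 0.19. The 24 h sample of number 1 was at -0.034, where the others lay between -1.23 and -0.95. They were found by the gap to the nearest sample as a share of the range (Dixon's criterion), over 30 sets of 5 values, and chance alone marks about 1 set in 20. These are the samples whose score columns matched each other's scanner file.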

How the results depend on the processing

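Depth limits Lum and Rgs5, whose signal lay at or under the background limit. The spread of the collagens over the 15 samples went mostly with the number. It limits their treatment comparisons in fits without a term for the number. The direction of the collagen differences of number 3 and of number 1 against number 2 held under each alternative run. The cause of the changes below was not tested, except that comparisons within a slide use fewer samples and those without a replicate or without 24 h use fewer samples too. The run with the deposited scores took columns by name. For 24 h replicates 1 and 3 each of these columns follows the other's scanner file. Between numbers, the score run thus already contains the exchange and is no separate alternative to it. The exchange combined with a term for the number or the slide, and the fit without the 24 h samples, were chosen after seeing the data.

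Hydroxyurea comparisons called 0 probes and 0 of the 10 tested probes except as follows. Within slide 2 the counts were 6 at 2 h, 52 at 6 h, 1 for the mean of the 4 times, 4 for 24 h against 2 h and 47 for the F test among 5 groups, and within slide 1 it was 16 at 12 h. Slide 2 held only replicate 3 at 2 h and at 6 h, and slide 1 held only replicate 1 at 12 h. The within-slide counts at these times thus rest on 1 treated sample each. They cannot separate treatment from that sample or its number, and no treatment effect is drawn from them. The other counts within slide 2 include the same single samples. The replicate block left every count at 0, with Col1a1 at -0.21 for the mean of the 4 times, and with the exchange it called 1 probe there. For that mean, values of opposite sign were 0.14 for Lum and 0.092 for Pdgfrb with normexp, -0.013 for Igf2 and -0.00292 for Acta2 with the deposited scores, 0.00406 for Dcn, -0.062 for Igf2 and 0.082 for Pdgfrb with the repeat array of untreated replicate 1 alone, 0.016 for Col1a2 and 0.048 for Col1a1 (A_44_P350521) within slide 1, and 0.026 for Dcn, 0.062 for Col1a2 and 0.17 for Pdgfrb within slide 2.

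Between numbers 2 and 1, 122 probes were called, against 80 with normexp, 77 without a filter, 229 with the exchange and 234 without a group term. Of the 10 tested probes, 0 were called, against 1 with normexp, 2 with probes above background on every array, and 3 with the scores, the slide as a block, the exchange, the exchange and slide, no group term or no 24 h samples. Acta2 (0.021) turned to -0.018 with quantile normalization, -0.027 with scores, -0.00157 with the first array of untreated replicate 1 alone, -0.081 with the exchange, -0.095 without 24 h and -0.054 with the exchange and slide, and Pdgfrb (0.071) to -0.0020 with scores, -0.021 with the first array, -0.065 without 24 h and -0.060 with the exchange and slide. Between numbers 3 and 1, 0 probes were called, against 191 with scores, 258 with the exchange, 116 without 24 h and 6 with the exchange and slide, and 0 of the 10, against 3, 3, 2 and 0. There Fn1 turned to 0.033 with normexp. Dcn turned to -0.016 with the percentile over probes above background, -0.034 with slide, -0.00320 with the first array and -0.057 with the exchange and slide. Acta2 turned to -0.00490 with that percentile, -0.044 with scores, -0.00637 with the first array, -0.19 with the exchange, -0.11 without 24 h and -0.11 with the exchange and slide.

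Between numbers 3 and 2, 209 probes were called, against 131 with normexp, 486 with scores, 127 without a filter, 126 with slide, 627 with the exchange, 464 without a group term and 384 without 24 h. Lum (-0.040) turned to 0.15 with normexp, 0.023 with quantile normalization, 0.039 with scores, 0.10 with the exchange and 0.079 with the exchange and slide, and Acta2 (-0.00480) to 0.041 with normexp, 0.027 with quantile normalization and 0.082 with slide. The F test called 159, against 92 with normexp, 507 with scores, 92 without a filter, 655 with the exchange, 326 without a group term, 335 without 24 h and 325 with the exchange and slide, and 3 of the 10, against 1 without a filter.

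Leaving out each sample in turn gave 52 to 397 calls in the F test among numbers (0 to 4 of the 10), 58 to 182 for numbers 2 and 1 (0 to 3), 0 to 3 for numbers 3 and 1, 83 to 431 for numbers 3 and 2 (1 to 4), 0 to 2 for the F test among groups and for 6 h, and 0 to 1 for 24 h. Of 600 such values of 40 differences, 40 changed sign, none above 0.35 in size. For the mean of the 4 times they were -0.76 to 0.28 for Col1a1, -0.25 to 0.18 for A_44_P350521, -0.52 to 0.35 for Col1a2, -0.89 to 0.23 for Col3a1, -0.048 to 0.017 for Dcn, -0.14 to 0.046 for Fn1, -0.087 to 0.096 for Igf2 and -0.29 to 0.097 for Pdgfrb. For numbers 2 and 1 they were -0.099 to 0.15 for Acta2 and -0.056 to 0.19 for Pdgfrb. For numbers 3 and 1 they were -0.10 to 0.15 for Acta2 and -0.047 to 0.047 for Dcn, and for numbers 3 and 2 -0.070 to 0.068 for Acta2 and -0.22 to 0.11 for Lum.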
